A study of Mus musculus with 4 samples.

Results

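ER-associated degradation (ERAD) is the route by which misfolded proteins are recognised in the endoplasmic reticulum (ER), passed through its membrane, ubiquitinated and handed to the proteasome. The transcripts described here belong to 10 genes of this machinery, taken by gene name from a table of 35275 genes: Syvn1, Sel1l, Derl1, Derl2, Derl3, Edem1, Edem2, Edem3, Herpud1 and Os9. All 10 were found, each on 1 row, and all 10 passed the filter of at least 1 CPM (counts scaled to a common library size) in at least 1 library that 12180 genes passed.

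Liver RNA came from 4 groups of female mice killed at 26 weeks of age, each a pool of 4 mice sequenced as 1 library. All mice carried the amyloidogenic Apoa2c allele of apolipoprotein A-II, which the sample labels describe as an Apoa2c congenic on AKR/J and the study's methods as the strain R1.P1-Apoa2c on a SAMR1 background. The vehicle groups, VS (sedentary) and VI (interval training, IT), received saline without fibrils, and the fibril groups, FS (sedentary) and FI (IT), received AApoAII amyloid fibrils by vein at 10 weeks of age, an injection that seeds AApoAII amyloidosis. IT was treadmill running in alternating bouts of high and low speed over 16 weeks, and it started at the time of the injection. Because the 16 mice gave 4 pooled libraries, no value below has a replicate error, and the 95% intervals cover counting error only. RNA of whole liver was measured, in which fewer cells of a type and less RNA per cell cannot be told apart.

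Total counts lay between 23442935 (VS) and 28814802 (FS), and Alb, the albumin gene of hepatocytes, took 12.1% to 13.6% of them. The summed level of 6 hepatocyte markers was 154399 to 167150 CPM. VS stood apart in 11 skeletal muscle markers, whose summed level was 77.5 CPM there compared with 9.89 CPM (VI), 0.982 CPM (FS) and 0.827 CPM (FI) elsewhere. VS enters FS versus VS and VI versus VS, whereas FI versus VI and FI versus FS are made without it. The muscle markers differed without VS as well. All 11 were lower by more than 2-fold in FI versus VI, with a median log2 ratio of −3.91, but Myh4 and Pvalb had only 1 count in VI and 0 in FI. All 11 were also lower by more than 2-fold in FS versus VS (median −6.23) and in VI versus VS (median −2.87). Myh1, Myh2, Myh4, Tnni2, Ckm, Atp2a1 and Pvalb reached 1 CPM in VS only, so the filter favoured lower ratios to VS. In FI versus FS, 5 were lower and 2 higher by more than 2-fold, from at most 14 counts in a library. The share of all genes lower by more than 2-fold was counted for FI versus FS only, at 2.54%. The part of the muscle transcripts in the results was not tested.

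The core of ERAD in mammals is a membrane complex of the ubiquitin ligase HRD1 (Syvn1) and its stabilising partner SEL1L. Derlins help substrates through the membrane, and EDEM proteins and the lectin OS-9 act on the glycans of misfolded glycoproteins. HERP (Herpud1) is a ubiquitin-like membrane protein that binds HRD1. Hepatocytes secrete most plasma proteins and therefore carry a large load of folding in the ER. Many ERAD genes are targets of the unfolded protein response (UPR), in which the factors ATF6 and XBP1 bind ER stress elements in promoters.

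Promoter windows from 250 bases before to 50 bases after the annotated start were taken from RefSeq on GRCm38.p6 and were found for 9 of the 10 genes, Derl2 with a pair of windows and Derl1 with none. A set of 3 letter patterns was searched on both strands. These were the ER stress element ERSE (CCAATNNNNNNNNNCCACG), ERSE-II (ATTGGNCCACG) and the core of the UPR element (TGACGTGG). ERSE was found in Syvn1 and Derl3, ERSE-II in Herpud1, and the UPR element core in none of the 9. The patterns share letters, but no match overlapped another here. The windows of the 3 genes with a match are shown because Syvn1 and Derl3 had the largest ratios between fibril and vehicle libraries and Herpud1 one of the smallest. They are printed 5′ to 3′ on the strand of the gene, with the fixed letters of the match in capitals.
Syvn1, chr19:6046326-6046625, plus strand, ERSE on the strand of the gene: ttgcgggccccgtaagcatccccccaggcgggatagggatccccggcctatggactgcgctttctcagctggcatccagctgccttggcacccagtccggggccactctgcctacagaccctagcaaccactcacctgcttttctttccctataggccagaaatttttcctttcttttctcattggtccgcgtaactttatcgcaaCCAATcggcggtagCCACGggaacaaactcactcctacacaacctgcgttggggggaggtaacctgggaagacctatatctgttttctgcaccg
Derl3, chr10:75893148-75893447, plus strand, ERSE on the opposite strand: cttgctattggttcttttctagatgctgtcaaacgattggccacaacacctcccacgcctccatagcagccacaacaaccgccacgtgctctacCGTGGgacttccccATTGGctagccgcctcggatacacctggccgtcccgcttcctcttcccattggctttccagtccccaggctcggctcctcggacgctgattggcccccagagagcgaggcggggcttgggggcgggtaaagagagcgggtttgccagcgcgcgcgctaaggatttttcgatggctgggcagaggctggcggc
Herpud1, chr8:94386179-94386478, plus strand, ERSE-II on the strand of the gene: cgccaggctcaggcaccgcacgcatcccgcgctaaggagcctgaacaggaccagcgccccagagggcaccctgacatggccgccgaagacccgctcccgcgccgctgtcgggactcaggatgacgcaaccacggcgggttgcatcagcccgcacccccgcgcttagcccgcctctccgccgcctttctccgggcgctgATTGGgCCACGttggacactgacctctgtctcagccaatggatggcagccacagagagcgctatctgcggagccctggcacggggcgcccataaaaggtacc
The first base of the match lay at −44 in Syvn1, −156 in Derl3 and −52 in Herpud1, counted from the annotated start. Over all 32851 windows of the same length, ERSE was found in 0.119%, ERSE-II in 0.0365%, the UPR element core in 0.676% and any of the 3 in 0.822%. Counted per gene, over 27025 genes, these shares were 0.137%, 0.0444%, 0.714% and 0.884%. The windows of the ERAD genes were richer in G and C, with a median of 62.2% beside 52.7% for all windows. Among 16 ER luminal chaperones, 13 had a window and 7 of them an ERSE, among them Hspa5, Creld2 and Calr. Among 31 proteasome subunits, 25 had a window and none of these held any of the patterns. A match is a run of letters and was not tested as a binding site.

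**Figure D1:**
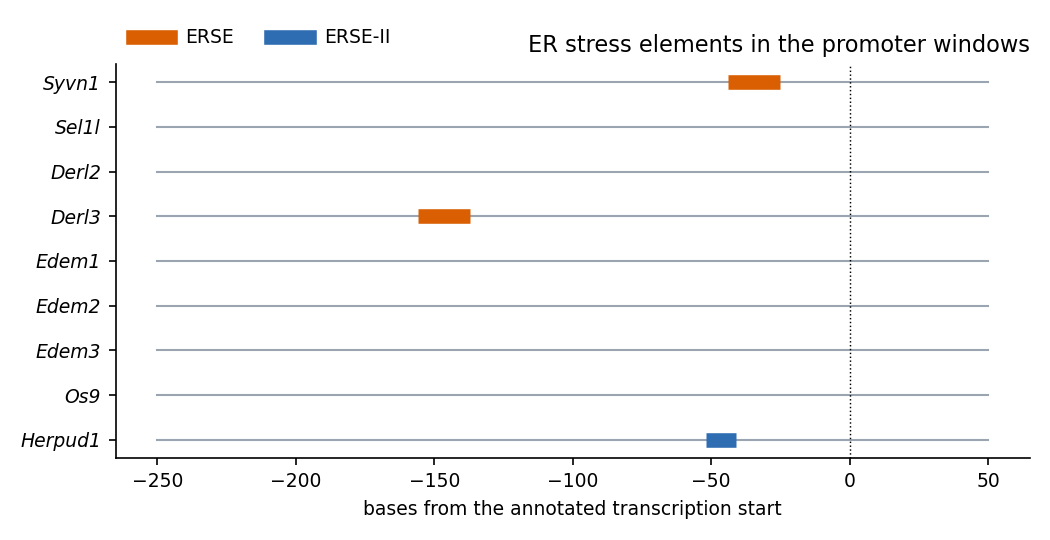
Positions of ERSE (orange) and ERSE-II (blue) in the promoter windows of the 9 ERAD genes with a RefSeq window, in bases from the annotated transcription start (dotted line). Syvn1 and Derl3 hold an ERSE, starting at −44 and −156, and Herpud1 an ERSE-II, starting at −52; the other genes have no match in the window.

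Per length, Herpud1 was by far the most abundant of the 10 transcripts and Derl3 or Edem3 the least. The deposited FPKM values (counts divided by gene length and library total) allow genes to be compared. In VS the order was Herpud1 (352 FPKM), Os9 (72.9), Derl1 (41.0), Edem1 (21.4), Derl2 (20.8), Edem2 (17.3), Sel1l (13.3), Syvn1 (13.2), Edem3 (2.88) and Derl3 (0.575). In FS the first 3 places were the same, with Herpud1 at 396 FPKM, Os9 at 80.7 and Derl1 at 50.5. Syvn1 stood next at 41.7 FPKM, and Derl3, at 13.3, stood above Edem3, at 6.01. Within genes and in TMM-scaled CPM, 8 of the 10 had their highest level in FS, and Herpud1 and Os9 had it in FI. By FPKM, Herpud1 was highest in FS, with 392 FPKM in FI.

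**Figure D2:**
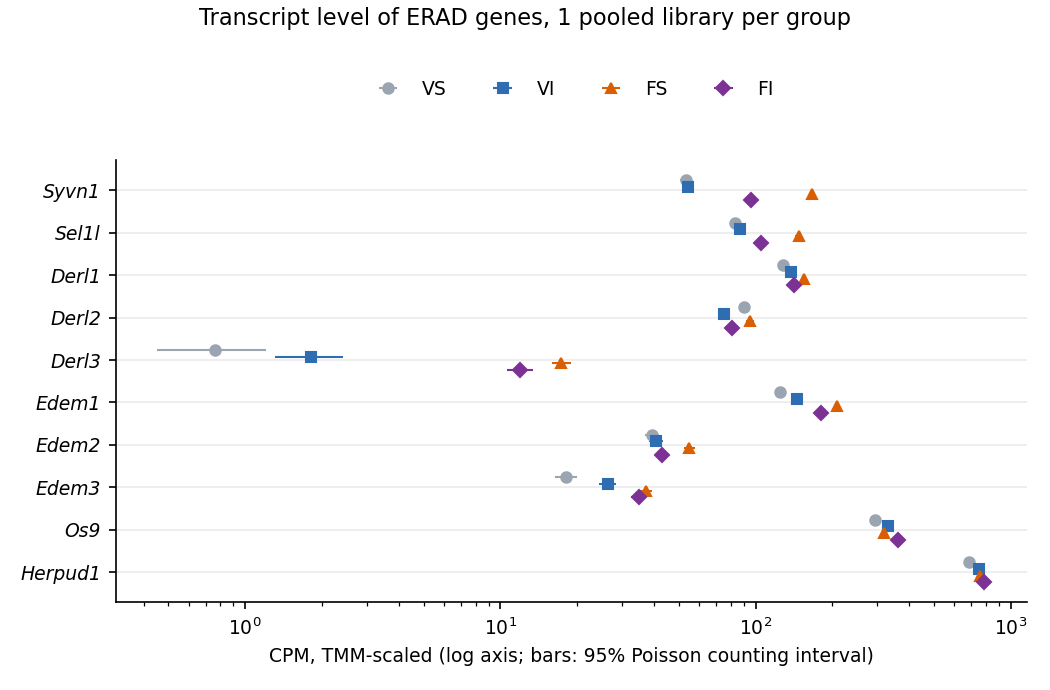
Level of each of the 10 ERAD genes in VS, VI, FS and FI, in TMM-scaled CPM on a log axis, with 1 pooled library per point and bars for the 95% Poisson counting interval. FS is the highest point in 8 genes; Derl3 spans from 0.762 CPM in VS to 17.3 CPM in FS, whereas the 4 points of Herpud1 lie between 683 and 785 CPM.

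The first comparison asked how livers of fibril-injected mice differed from those of vehicle mice when neither group trained. In FS compared with VS all 10 transcripts were higher, 3 of them (Derl3, Edem3 and Syvn1) by more than 2-fold, while 3.6% of all genes were higher by more than 2-fold. The median log2 ratio of the 10 was 0.61, and that of all 12180 genes was 0.02. In FI compared with VI, which shares no library with the former, all 10 were again higher, 1 of them (Derl3) by more than 2-fold beside 2.59% of all genes. The median there was 0.20, beside 0.01 for all genes. Of all genes, 52% were higher in FS versus VS and 51.3% in FI versus VI.

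Syvn1 (ENSMUSG00000024807, chr19:6046576-6053712, plus strand, mm10) encodes the ubiquitin ligase HRD1. Its level was 53.3 CPM (VS) and 54.3 CPM (VI) under vehicle, from 1259 and 1323 counts, compared with 166 CPM (FS) and 96.0 CPM (FI) under fibrils, from 4907 and 2322 counts. Both fibril libraries were above both vehicle libraries, and the vehicle libraries had overlapping counting intervals. FS exceeded VS by a log2 ratio of 1.64 (1.55 to 1.73), a fold of 3.12, and FI exceeded VI by 0.82 (0.72 to 0.92). In the 83 bases shared with Mrpl49 on the opposite strand, reads of both genes cannot be told apart, since the sources used here do not state whether counting used strand.

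Sel1l (ENSMUSG00000020964, chr12:91806043-91849157, minus strand), the partner that stabilises HRD1, was at 83.3 CPM (VS) and 86.7 CPM (VI) under vehicle and at 147 CPM (FS) and 105 CPM (FI) under fibrils. The order of the 4 libraries was that of Syvn1, with a smaller range. In sedentary mice FS exceeded VS by 0.82 (0.75 to 0.90) on the log2 scale and with IT FI exceeded VI by 0.27 (0.19 to 0.36). The FPKM of Syvn1 was 0.989 times that of Sel1l in VS and 0.967 times in VI, compared with 1.74 times in FS and 1.42 times in FI. Transcripts of the ligase and of its partner were at near equal levels per length in the vehicle libraries and not in the fibril libraries.

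Derl3 (ENSMUSG00000009092, chr10:75893398-75895941, plus strand) had the widest range of the 10. Derlins are membrane proteins related to rhomboid proteases, and Derl3 is known as a UPR target with high levels in secretory cells such as those of the pancreas. Under vehicle it was low, with 18 counts or 0.762 CPM (VS) and 44 counts or 1.81 CPM (VI). Under fibrils it reached 512 counts or 17.3 CPM (FS) and 290 counts or 12.0 CPM (FI). Both fibril libraries were above both vehicle libraries, and no counting intervals overlapped. Without training, FS exceeded VS by 4.47 (3.83 to 5.27) on the log2 scale and with IT FI exceeded VI by 2.72 (2.27 to 3.22), the sixth and the nineteenth highest among all 12180 genes. The wide interval in FS versus VS comes with the 18 counts in VS.

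Derl1 and Derl2 differed far less between the libraries. Derl1 (ENSMUSG00000022365, chr15:57869502-57892418, minus strand) was at 128 CPM (VS) and 138 CPM (VI) under vehicle and at 155 CPM (FS) and 141 CPM (FI) under fibrils. FS exceeded VS by 0.28 (0.21 to 0.34) on the log2 scale, and the value for FI over VI was 0.04 (−0.03 to 0.11). Derl2 (ENSMUSG00000018442, chr11:71007164-71019841, minus strand) was at 90.4 CPM (VS), 75.3 CPM (VI), 95.3 CPM (FS) and 81.1 CPM (FI), and the same log2 ratios were 0.08 (−0.01 to 0.16) and 0.11 (0.01 to 0.20). In Derl2 the sedentary libraries were above the IT libraries whether or not fibrils had been given, and it shares 231 bases with Mis12 on the opposite strand. Derl3 made up 0.921% of the summed derlin FPKM in VS and 2.17% in VI, compared with 15.4% in FS and 12.4% in FI.

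The EDEM proteins resemble mannosidases and mark misfolded glycoproteins for disposal. Edem1 (ENSMUSG00000030104, chr6:108828641-108859356, plus strand) was at 124 CPM (VS) and 146 CPM (VI) under vehicle and at 207 CPM (FS) and 180 CPM (FI) under fibrils. In sedentary mice FS exceeded VS by 0.74 (0.67 to 0.80) on the log2 scale and with IT FI exceeded VI by 0.31 (0.24 to 0.37). Edem3 (ENSMUSG00000043019, chr1:151755371-151822051, plus strand) was the least abundant of the 3, with 18.1 CPM (VS) and 26.4 CPM (VI) under vehicle and 37.1 CPM (FS) and 34.9 CPM (FI) under fibrils. VS was the lowest library of Edem3 and its fibril libraries had overlapping intervals. Without training, FS exceeded VS by 1.04 (0.87 to 1.20) on the log2 scale, just past 2-fold and under it, at 0.85, with FPKM and a pseudocount of 1, and with IT FI exceeded VI by 0.40 (0.25 to 0.56).

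Edem2 (ENSMUSG00000038312, chr2:155701677-155729475, minus strand) was at 39.3 CPM (VS) and 40.6 CPM (VI) under vehicle and at 55.1 CPM (FS) and 43.0 CPM (FI) under fibrils. FS was above the other 3 libraries, whose counting intervals overlapped. FS exceeded VS by 0.49 (0.37 to 0.60) on the log2 scale, and the value for FI over VI was 0.08 (−0.04 to 0.21). Unlike the derlins, the EDEM transcripts kept similar shares of their summed FPKM: Edem1 made up 51.4% to 55.9%, Edem2 34.1% to 41.6% and Edem3 6.93% to 10.0% over the 4 libraries.

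**Figure D3:**
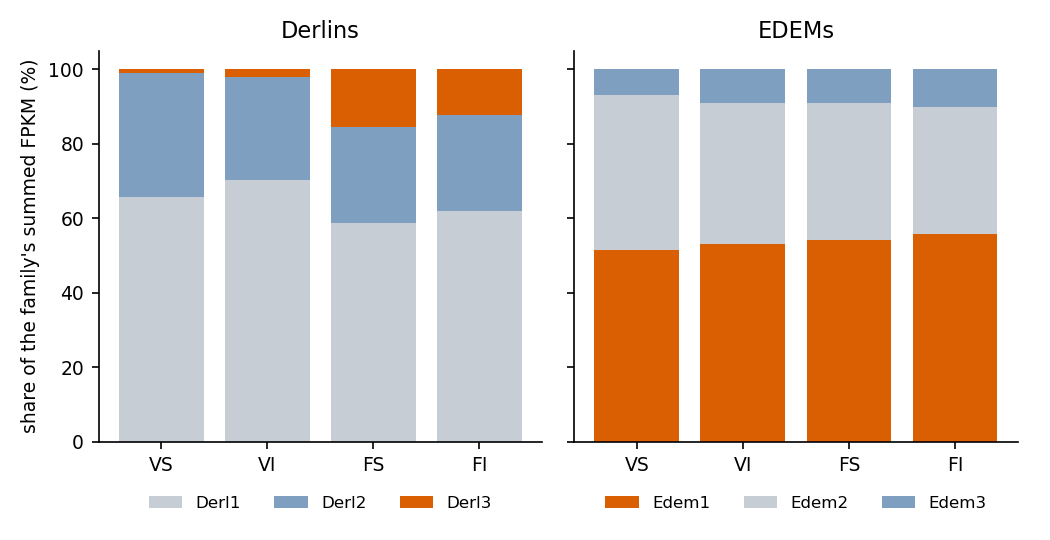
Share of each gene in the summed FPKM of the derlins (left) and of the EDEMs (right) in VS, VI, FS and FI, 1 pooled library each, with bars adding to 100%. The share of Derl3 (orange, left) is 0.921% in VS and 15.4% in FS, whereas Edem1 (orange, right) stays between 51.4% and 55.9%.

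Herpud1 and Os9, the most abundant of the 10, had the narrowest ranges together with Derl1 and Derl2. Herpud1 (ENSMUSG00000031770, chr8:94386438-94395377, plus strand) was at 683 CPM (VS) and 749 CPM (VI) under vehicle and at 755 CPM (FS) and 785 CPM (FI) under fibrils. In sedentary mice FS exceeded VS by 0.14 (0.12 to 0.17) on the log2 scale and with IT FI exceeded VI by 0.07 (0.04 to 0.10). Os9 (ENSMUSG00000040462, chr10:127094259-127121160, minus strand) was at 293 CPM (VS), 331 CPM (VI), 319 CPM (FS) and 360 CPM (FI), and both of these ratios were 0.12 (0.08 to 0.17 and 0.08 to 0.16). The VI and FS intervals of Herpud1 overlapped, and in Os9 VI was above FS. Herpud1 shares 535 bases with the antisense gene Gm15890, which had at most 52 counts in a library. Herpud1, the gene with an ERSE-II, was higher in the fibril libraries by far less than Syvn1 and Derl3, the genes with an ERSE. Genes with a window but no match lay on both sides of Herpud1 in FS versus VS. Edem3 (1.04), Sel1l (0.82), Edem1 (0.74) and Edem2 (0.49) were above it, and Os9 (0.12) and Derl2 (0.08) below. A link between motif and ratio was not tested.

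An additive model of amyloidosis and exercise over the 4 libraries, with 1 residual degree of freedom, gave a test of each factor. Its residual holds any difference of the IT ratio between fibril and vehicle libraries together with variation between pools. These cannot be told apart, so the SE and p-values do not measure spread between mice. By the quasi-likelihood test of edgeR, adjusted over 11760 genes by the Benjamini-Hochberg method, 2 of the 10 genes rose with amyloidosis, beside 2.81% of all genes. Derl3 rose by 3.49 on the log2 scale (SE 0.38, adjusted p = 0.0065 by edgeR), and Syvn1 rose by 1.23 (SE 0.19, adjusted p = 0.020 by edgeR). Edem3 had an estimate of 0.71 (adjusted p = 0.0502 by edgeR), Edem1 of 0.52 (0.069) and Sel1l of 0.54 (0.080). The estimates of the other 5 lay between 0.09 for Derl2 and 0.28 for Edem2, with adjusted p-values by edgeR from 0.27 to 0.70. Both calls were lost with amyloidosis alone in the model, where 0 of the 10 were called, and 5 were called without a filter on low counts. Whether libraries of other mice would vary as these 4 do cannot be learned from them.

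**Figure D4:**
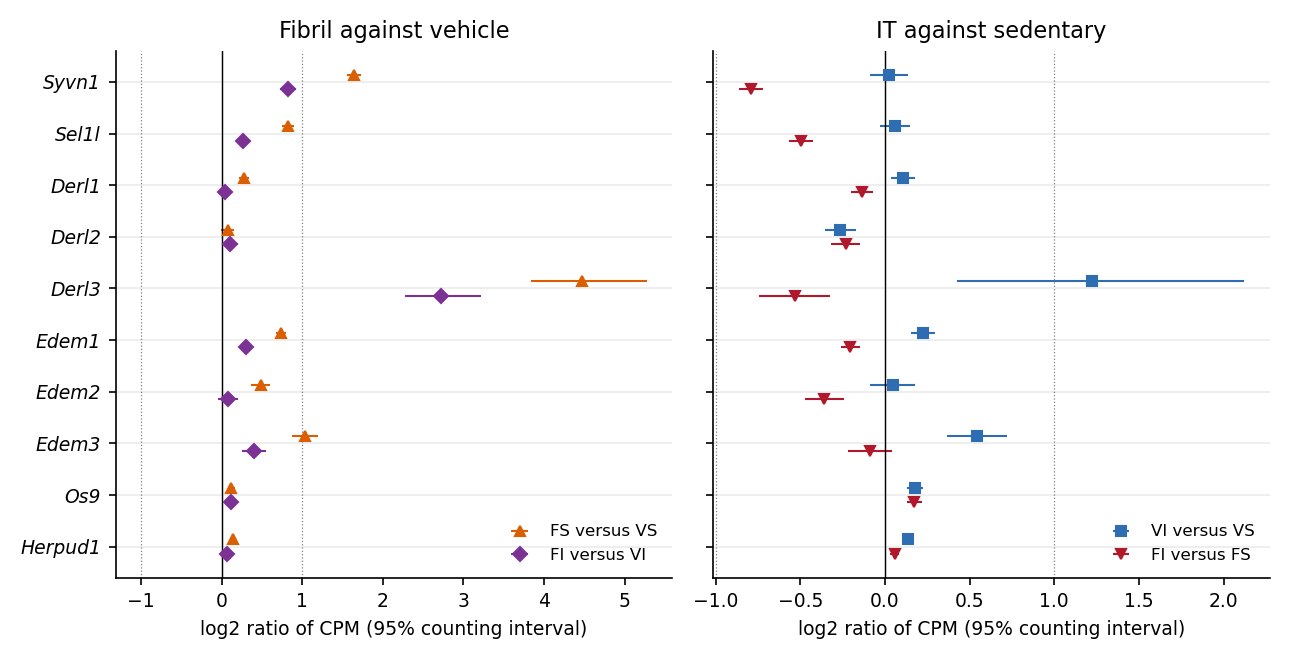
Log2 ratios of CPM for the 10 ERAD genes, fibril against vehicle (left) and IT against sedentary (right), with 95% counting intervals; dotted lines mark 2-fold. All points on the left lie above 0, led by Derl3 at 4.47 in FS versus VS and 2.72 in FI versus VI. On the right, FI versus FS is below 0 in 8 genes (Herpud1, at 0.06, turns to −0.01 with total counts), with Syvn1 lowest at −0.79, while VI versus VS is below 0 in Derl2 (−0.26).

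The second comparison asked how IT changed these transcripts with and without fibrils. In VI compared with VS, 9 of the 10 were higher, beside 50.7% of all genes, and 1, Derl2, was lower. The median log2 ratio of the 10 was 0.12, beside 0.00380 for all genes. Derl3 alone was past 2-fold, at 1.22 (0.42 to 2.12) and from 18 and 44 counts, and 1.54% of all genes were higher by more than 2-fold. Edem3 followed at 0.54 (0.36 to 0.72), Edem1 at 0.23 (0.16 to 0.30) and Os9 at 0.18 (0.13 to 0.22). Syvn1 at 0.03 (−0.09 to 0.14), Sel1l at 0.06 (−0.03 to 0.15) and Edem2 at 0.05 (−0.09 to 0.18) had intervals that included 0.

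FS, the library with the highest CPM of 8 of the 10, enters FI versus FS as well as FS versus VS. In FI compared with FS, 8 of the 10 were lower and 2, Herpud1 and Os9, were higher, while 50.1% of all genes were higher. The median of the 10 was −0.22, beside 0.000437 for all genes. None was past 2-fold, beside 2.54% of all genes that were lower by more than 2-fold. Syvn1 was lowest, at −0.79 (−0.86 to −0.72), followed by Derl3 at −0.53 (−0.75 to −0.32), Sel1l at −0.49 (−0.56 to −0.42) and Edem2 at −0.36 (−0.47 to −0.24). Edem3 stood at −0.09 (−0.22 to 0.04). Os9 was at 0.17 (0.13 to 0.22), and Herpud1 was at 0.06 (0.03 to 0.09) but at −0.01 when libraries were scaled by total counts or FPKM were used.

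The ratio of IT to sedentary was lower under fibrils than under vehicle in 9 of the 10 genes. The difference of the log2 ratios, FI versus FS minus VI versus VS, had a median of −0.42 over the 10 and of −0.01 over all genes, 48.8% of which were above 0. It was −1.78 (−2.60 to −0.96) in Derl3, −0.82 (−0.95 to −0.69) in Syvn1, −0.63 (−0.85 to −0.41) in Edem3 and −0.55 in Sel1l. Derl2 was the exception, at 0.03 (−0.09 to 0.15) and at −0.02 with scaling by total counts. Os9 was at −0.003, and at 0.01 with DESeq2 size factors. With 1 library in each group this difference has counting error only and no test.

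The same values can be read as the part of the FS difference that was present under IT. The CPM difference between FI and VI was 36.9% of that between FS and VS in Syvn1, 28.0% in Sel1l, 41.5% in Edem1, 44.9% in Edem3 and 61.4% in Derl3. With scaling by total counts these shares were 34.0%, 23.8%, 35.6%, 39.7% and 58.2%. In the other 5 genes the share moved by more than 1.5 times with the scaling, from 13.2% to 3.37% in Derl1, 15.2% to 9.56% in Edem2, 50.7% to 25.9% in Herpud1, 111% to 69.7% in Os9 and 119% to 65.7% in Derl2. Whether the difference of Os9 and Derl2 was larger or smaller under IT thus depended on the scaling. In the additive edgeR fit 0 of the 10 genes passed the test for exercise, and 0 had an unadjusted p under 0.05, beside 174 genes (1.48%) called among all and 1726 with an unadjusted p under 0.05. Derl2 had the lowest adjusted p by edgeR (0.35, at −0.25 on the log2 scale), and Syvn1 followed (0.42, at −0.39). DESeq2 and limma-voom called 0 of the 10 as well. This fit has 1 exercise term for both fibril states and so averages over them.

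The other genes of the pathway were taken from lists by role. Their counts stand beside 2.81% of all genes that rose with amyloidosis by edgeR. Partners of the HRD1 complex, 13 genes, had a median log2 ratio of 0.17 in FS versus VS, with 8 higher and 5 lower, and 0 passed the test for amyloidosis. Vimp (0.69) and Ubxn4 (0.61), which recruit the extracting ATPase p97 to the membrane, were at the top, and Svip (−0.20), which inhibits ERAD, and Aup1 (−0.34) at the bottom. The 11 other ER ubiquitin ligases and conjugating enzymes had a median of −0.01, and 1 rose, Ube2g2, a conjugating enzyme of ERAD (0.73 in FS versus VS, estimate in the additive fit 0.68, adjusted p = 0.015 by edgeR). Rnf185 stood at 0.27, Erlin1 at −0.06 and Rnf5 at −0.47. The 15 genes of extraction, deglycosylation and delivery had a median of 0.05, and 1 rose, the deubiquitinase Yod1 (0.83 in FS versus VS, estimate in the additive fit 0.62, adjusted p = 0.049 by edgeR). Atxn3 stood at 0.31, and the shuttle factor Ubqln4 at −0.36.

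Lists of genes that act inside the ER had higher medians in FS versus VS than lists of its cytosolic side. Of 6 genes of luminal recognition and reduction, 5 were higher by more than 2-fold in FS versus VS, beside 3.6% of all genes. In FI versus VI 0 of the 6 were, beside 2.59% of all genes. The medians were 1.19 and 0.19. Beside 2.81% of all genes, 2 of the 6 rose with amyloidosis by edgeR. These were Hspa5, the chaperone BiP (308 and 430 CPM in the vehicle libraries VS and VI, 1161 and 823 CPM in FS and FI, estimate 1.42, adjusted p = 0.022 by edgeR), and Uggt1, the glucosyltransferase that senses misfolded glycoproteins (1.07 in FS versus VS, estimate 0.88, adjusted p = 0.0094 by edgeR). Txndc11 stood at 1.31 and Man1b1 at −0.06. Of 16 ER luminal chaperones, which include Hspa5 and Dnajb9 of the former list, 15 were higher in FS versus VS, beside 52% of all genes. Of the same 16, 11 rose by edgeR, beside 2.81% of all genes. Their median was 1.25 in FS versus VS and 0.91 in FI versus VI. Sdf2l1 (3.37) and Creld2 (2.66) were at the top, and Canx (0.32) and Sil1 (−0.19) at the bottom. The 31 proteasome subunits had medians of −0.03 and 0.02, and 0 passed the test. Psmc4 (0.28) and Psmc1 (0.22) were highest and Psmd3 (−0.27) and Psmd11 (−0.37) lowest in FS versus VS.

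The UPR sensors and factors, 7 genes, were all higher in FS versus VS, with a median of 0.69, and 5 of the 7 were higher in FI versus VI, with a median of 0.26. Xbp1, the factor activated by IRE1, was at 154 and 140 CPM in the vehicle libraries (VS, VI) and at 253 and 199 CPM in the fibril libraries (FS, FI), and it rose with amyloidosis (estimate 0.61, adjusted p = 0.028 by edgeR), and Atf6b rose by 0.60 (adjusted p = 0.048 by edgeR). Eif2ak3, the sensor PERK, was highest in FS versus VS (1.05) but did not pass the test. Atf4 (0.12) and Ddit3 (0.15), both downstream of PERK, were lowest in FS versus VS and stood at −0.29 and −0.19 in FI versus VI. No gene of these 7 lists passed the test for exercise.

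**Figure D5:**
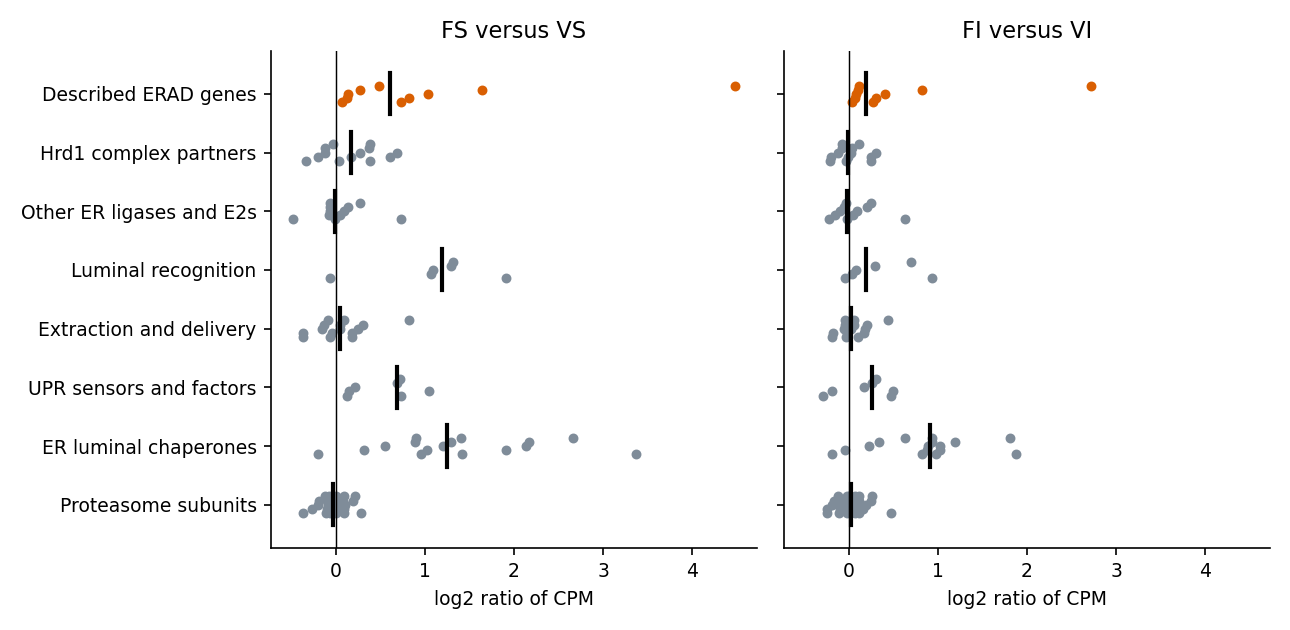
Log2 ratio of CPM in FS versus VS (left) and FI versus VI (right) for the 10 described ERAD genes (orange) and the pathway and comparison lists (grey), 1 point per gene, with the median as a black bar. The median of the described genes is 0.61 on the left and 0.20 on the right; luminal chaperones have 1.25 and 0.91, proteasome subunits −0.03 and 0.02.

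Derl3 was compared with markers of cells that could bring it into a liver sample. Of 10 acinar markers of the pancreas, 8 were at 0 in all 4 libraries, Ctrb1 had at most 2 counts, and Cela2a had 76 counts in FS beside 10 (VS), 17 (VI) and 14 (FI). Summed plasma cell markers stood at 270 CPM (VS) and 311 CPM (VI) under vehicle and at 294 CPM (FS) and 335 CPM (FI) under fibrils, of which Sdc1, also a hepatocyte gene, gave 239 to 296 CPM. Of the 8 plasma cell markers, 5 were fitted and 2 of them rose, beside 2.81% of all genes that rose by edgeR. Igkc (10.4, 7.14, 17.5 and 13.3 CPM) and Igha (7.62, 4.97, 14.8 and 13.8 CPM) rose with amyloidosis, with adjusted p = 0.022 and 0.011 by edgeR, whereas Ighm (8.64, 5.75, 8.30 and 6.57 CPM) had an adjusted p of 0.89 by edgeR. The J chain gene, listed as Igj, stood at 3.13, 3.78, 6.61 and 4.88 CPM, Mzb1 at 7 to 14 counts, Pou2af1 at 10, 4, 22 and 3 counts, and Tnfrsf17 at 5 counts in FS and 0 in the other libraries. Kupffer cell markers summed to 266, 321, 406 and 408 CPM, and 8 of 8 were higher in FS versus VS, beside 52% of all genes. Of the 8, 3 (Marco, C1qa and C1qb) rose by edgeR, beside the same 2.81%. Neutrophil markers summed to 2.07 CPM (VS), 2.46 CPM (VI), 5.39 CPM (FS) and 3.72 CPM (FI). The 2 of 8 that passed the filter were S100a8 (0.889, 0.903, 2.20 and 1.69 CPM) and S100a9 (0.847, 1.07, 1.76 and 1.24 CPM). Both were higher by more than 2-fold in FS versus VS, beside 3.6% of all genes. S100a8 reached 1 CPM in the fibril libraries only, and S100a9 did not reach it in VS, so the filter favoured higher ratios to VS. Retnlg had 1, 9, 28 and 15 counts, and Mpo 1 count in FS and 0 elsewhere. Markers of stellate cells (162 to 194 CPM) and of liver endothelium (172 to 217 CPM) had summed levels with no such split between fibril and vehicle libraries, although 1 of 6 endothelial markers (Lyve1) rose by edgeR. The part of these cells in the levels of the ERAD genes was not tested.

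The genes most like Derl3 over the 4 libraries were sought among 9339 others by the distance of centred log2 CPM. Prtn3 was nearest, at a distance of 0.331, with 0.593 and 1.11 CPM in the vehicle libraries (VS, VI) and 13.1 and 10.1 CPM in the fibril libraries (FS, FI). Without training, FS exceeded VS by 4.42 on the log2 scale and with IT FI exceeded VI by 3.16. Prtn3 encodes a serine protease known from neutrophil granules. Of the neutrophil markers, Retnlg, S100a8 and S100a9 were also higher in both fibril libraries than in both vehicle libraries. Camp had 0, 0, 2 and 1 counts in VS, VI, FS and FI. Ly6g (2, 3, 3 and 1 counts), Ngp (2, 0, 3 and 2 counts) and Mpo were not higher in both fibril libraries. With at most 3 counts in a library, the direction of Camp, Ly6g, Ngp and Mpo cannot be told. Elane, of the same granules as Prtn3, had 3, 0, 5 and 0 counts. The part of neutrophils in the level of Prtn3 was not tested. Orm2, an acute phase protein, followed at 1.03, then the ER chaperone cofactor Sdf2l1 at 1.04, Slc41a2 at 1.06 and Nnmt at 1.32. These distances rest on 4 libraries and describe likeness of pattern only.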

How the data were processed

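Liver RNA of 16 mice was pooled by group into 4 libraries and sequenced on an Illumina platform. The authors deposited raw read counts per gene without normalization, and FPKM values that equalled count divided by gene length and library total when recomputed (ratio 1). The submitters' processing notes name fastp 0.23.2, STAR 2.5, HTSeq 0.6.1 and build mm10. The sources used here give neither the counting settings nor the dispersion that the authors used with edgeR for groups of 1 library.

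Counts were analysed in R 4.3.3 with edgeR 4.0.16, limma 3.58.1 and DESeq2 1.42.0. Python 3.11.15 with matplotlib 3.10.9 served for motif search and plots. CPM were scaled by TMM. Log2 ratios used a prior of 0.5 counts and exact conditional binomial (Clopper-Pearson) 95% intervals. With 1 library per group the 4 contrasts have no test, and genes past 2-fold were counted among the 12180 that reached 1 CPM in any library. Each library serves in 2 of these contrasts, so that FS versus VS shares VS with VI versus VS and FS with FI versus FS, and FI versus VI shares VI and FI with the same contrasts. The additive model was fitted with edgeR (quasi-likelihood, robust) to 11760 genes that reached 1 CPM in 2 or more libraries. P-values were adjusted by the Benjamini-Hochberg method with a threshold of 0.05, and the script was tested on simulated data. A count of 0 allows up to 3 counts, 0.102 to 0.127 CPM.

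The 10 genes, the lists, the markers and the motifs were chosen with earlier results of these data known. All 10 genes were named, from each pathway list the 2 highest and 2 lowest in FS versus VS with at least 5 CPM in 1 library, and the 5 genes nearest to Derl3; 1 gene that this rule names is not reported here. Other genes are named as those that passed the test, held a motif or mark a cell type. List symbols were matched by name or, for older symbols, by Ensembl identifier. Coordinates are those deposited with the counts. Alternatives were other size factors, FPKM with a pseudocount, other priors, filters and fold thresholds, other tools and each factor alone.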

Additional observations from a re-analysis of the deposited data

Results flagged for a closer look

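The ratio of IT to sedentary went in opposite directions with and without fibrils in 3 of the 10 genes, each with both counting intervals clear of 0. Under vehicle, VI stood at a log2 ratio of 1.22 to VS for Derl3, 0.23 for Edem1 and 0.11 for Derl1. Under fibrils, FI stood at −0.53 to FS for Derl3, −0.20 for Edem1 and −0.13 for Derl1. How many of all genes meet the same rule was not counted, so whether 3 of 10 is many cannot be told. With 1 library per group the difference between both directions was not tested. Derl3 had 18 counts in VS and 44 in VI.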

How the results depend on the processing

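No ratio of the 10 genes changed direction, except Herpud1 in FI versus FS (−0.01 with total counts and with FPKM), under DESeq2 size factors, scaling by total counts, a prior of 2 counts or FPKM with a pseudocount of 1 or 0.1. At a fold threshold of 1.5, 5 genes in place of 3 were past it in FS versus VS, 2 in place of 1 in FI versus VI, and 1 in place of 0 in FI versus FS. The share of all genes past 1.5-fold was not counted, so whether these counts are high cannot be told. With FPKM and a pseudocount of 1, 0 genes were past 2-fold in VI versus VS, since Derl3 is low there, and 2 in place of 3 in FS versus VS, where Edem3 came to 0.85 and Derl3 to 3.18. The share of the fibril difference found under IT was also computed with total counts, a setting chosen for it after seeing the data. The mean in place of the median over the 10 genes was 0.98 in FS versus VS, 0.49 in FI versus VI and 0.23 in VI versus VS. In the additive fit, 0 of the 10 genes passed for amyloidosis with that factor alone, where 8 of 11760 genes passed, and 5 without a filter on low counts, where 1519 of 19939 passed. Edem3, with an adjusted p of 0.0502 by edgeR, was called in addition by limma-voom (0.036) and without robust estimation (0.043), but not by DESeq2 (0.052). Over the same alternatives, the adjusted p of Derl3 ranged up to 0.071 and that of Syvn1 up to 0.13, both with amyloidosis alone in the model. No paired analysis was possible because each group has 1 library. The 18 and 44 counts of Derl3 in the vehicle libraries limit its ratios.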
